A study of Danio rerio with 30 samples.

Results

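To follow major genome activation in total RNA, the wild-type zebrafish Ribo-Zero libraries at 4 and 5 h post-fertilization (hpf) were set against those at 2 and 3 hpf. These are 4 of the 30 libraries of the study. The genes described are the 14953 of 35117 listed genes whose level averaged at least 1 TPM (abundance of a transcript on a scale that adds up to one fixed sum per library) over these 4 libraries, and changes are differences of log2(TPM + 0.1). Ribo-Zero removes ribosomal RNA, so that total RNA with and without a poly(A) tail is sequenced. The embryos of the 4 libraries were untreated. Other libraries of the same hours, used here for comparison, were poly(A)-selected RNA of untreated wild-type embryos and poly(A)-selected RNA of wild-type embryos injected at the 1-cell stage with 200 ng/µl alpha-amanitin, a toxin that inhibits transcription by RNA polymerase II and III. Each hour has 1 library, made from a set of 25 pooled embryos. The labels name a biological replicate of each set but do not say whether it is part of the library. The labels do not say either whether the library types shared embryos.

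Early cleavage in zebrafish runs on mRNA and protein laid down in the egg. At the blastula stage the embryo's own genome is switched on, with the maternal factors Nanog, Pou5f3 and Sox19b opening the first genes, while maternal mRNAs are cleared by factors from the egg and by products of the new transcription. Among the earliest of these products is miR-430, a microRNA family that silences and destabilizes many maternal mRNAs.

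The hours between 3 and 5 hpf held most of the change. Between 2 and 3 hpf, 271 genes gained and 219 genes lost at least 1 on the log2 scale. From 3 to 4 hpf, 1251 genes gained as much and 474 lost as much, and from 4 to 5 hpf the counts were 1335 and 2333. Gains thus came in similar numbers in both hours, and most losses came in the second. The number of genes listed at 0 went from 14178 and 13919 at 2 and 3 hpf to 11703 and 10130 at 4 and 5 hpf. Among the genes tested, 392 passed limma's test as higher at 4 and 5 hpf (adjusted p under 0.05), which is 2.62% of the genes, and 7 as lower, which is 0.0468%. With no use of a test, 1096 genes (7.33%) had their lower late library at least 1 above their higher early library, and 322 genes (2.15%) had the opposite gap. Here limma takes the 2 hours of a window as its replicates, so its spread holds the change within a window as well as the noise between libraries, and an exact permutation of 2 libraries against 2 cannot go below p = 0.333. The median change over all genes tested was -0.34, and it was -0.0042 after median-of-ratios scaling, so the changes below are to be read against that shift.

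The fit rested on particular hours. Without the 4 hpf library 1935 genes were called higher and 6953 lower, without 5 hpf 327 and 84, without 2 hpf 742 and 72, and without 3 hpf 745 and 119. Of 49 named genes called higher, 19 kept their call in each of 7 alternatives (each hour left out, pseudocounts of 0.01 and 1, and median-of-ratios scaling): ackr3b, apela, asb11, blf, bmp2b, cdkn1ca, cxcr4a, fam212aa, foxd3, ier2a, klf2b, nnr, si:dkey-199k11.6, si:dkey-238o14.7, sox19a, sox3, zgc:113886, znf1125 and znf1126. The other 30 lost it in at least 1, most often without 5 hpf (22 genes). A pseudocount of 0.01 ended 9 of the calls, those of BX927193.1, aplnrb, dharma, foxb1a, her5, lft2, si:dkeyp-87d1.1, vox and zic2b. A pseudocount of 1 ended 13 (ccnd1, cdkn1a, cxcl12a, foxb1a, gata2a, gata3, isg15, jun, noto, tbx16, vox, wnt11 and zic2b), and median-of-ratios scaling ended 13, those 13 with id1 in place of gata3. Of 7 genes called lower only ENSDARG00000097414 kept its call throughout. In the other direction, 38 of 40 named genes that were not called passed the test once 1 of the 4 hours was left out, most often 4 hpf (36 genes). The fit without 4 hpf called 12.9% of all genes higher and 46.4% lower, so these calls set no member apart. The filter on low values also shaped the calls: 1175 genes averaged under 1 TPM at 2 and 3 hpf and passed it only through 4 and 5 hpf, and 335 of the 392 genes called higher are among them. Their number is therefore a description of what the rule lets in. The other 57 genes called higher averaged at least 1 TPM at both windows.

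**Figure D1:**
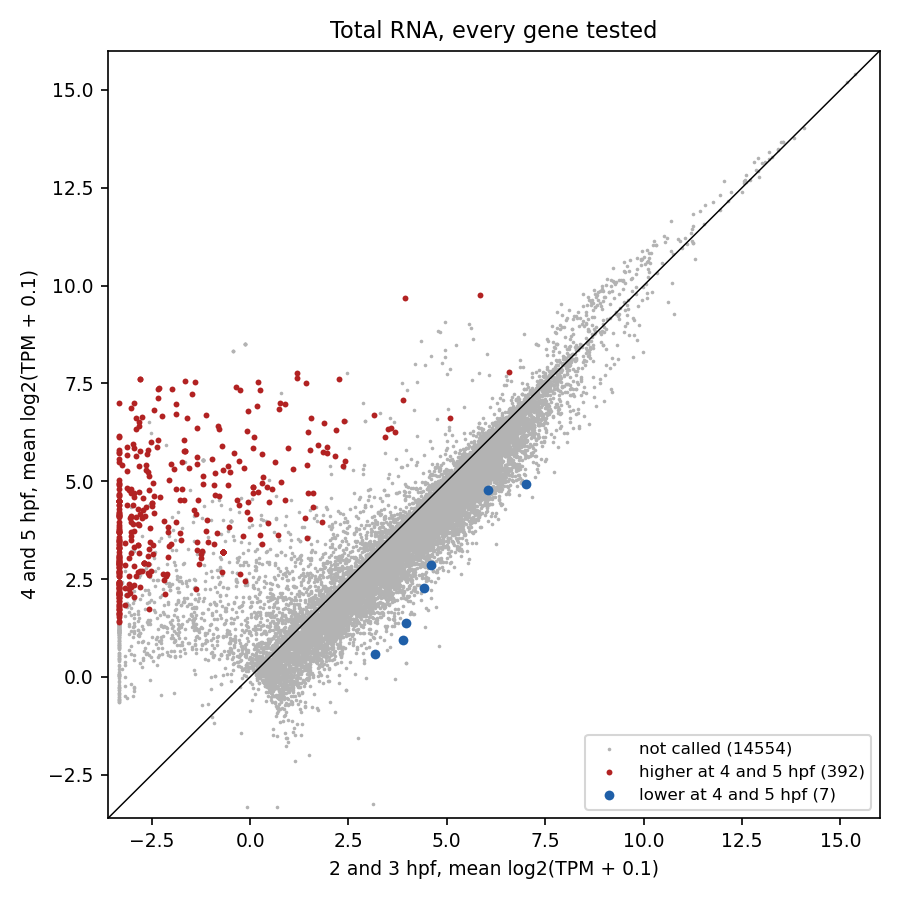
Mean log2(TPM + 0.1) of 4 and 5 hpf (vertical axis) against that of 2 and 3 hpf (horizontal axis) in the Ribo-Zero libraries, 1 point per gene tested, with the diagonal marking equal levels. The 392 genes called higher (red) lie above the diagonal, 335 of them with an early mean under 1 TPM, and the 7 genes called lower (blue) lie below it.

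Markers of other tissues were low in the 4 libraries. Of 18 adult tissue and ovarian follicle genes none averaged 1 TPM over 2 to 5 hpf, and the highest single value was 1.86 TPM, for the globin gene hbaa1. The share of TPM from mitochondrially encoded genes lay between 1.69% and 1.85%, and that from small structural RNA genes between 31.1% and 34.5%. The embryos were sequenced whole, so more cells of a type and more RNA per cell cannot be told apart.

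The highest of the new RNAs came from miR-430. The files list 55 rows of its loci, which hold only 9 distinct sets of values because the copies are near-identical, so the level of a single row is uncertain and their sum is the safer measure. Summed over the rows, the Ribo-Zero libraries held 0 TPM at 2 hpf, 73.7 TPM at 3 hpf, 5087 TPM at 4 hpf and 2392 TPM at 5 hpf. At 6, 7 and 8 hpf the sum was 345, 23.0 and 0 TPM. The peak thus came at 4 hpf, with a first level already at 3 hpf. The rows of the highest level were those of dre-mir-430b-1, with 0, 5.37, 534 and 194 TPM at 2, 3, 4 and 5 hpf, and of dre-mir-430a-4, with 0, 8.29, 473 and 282 TPM. In limma's fit 13 of the 33 rows tested passed as higher, beside 2.62% of all genes, with a median change of 7.03 over those 33. All 13 averaged under 1 TPM at 2 and 3 hpf, as did 25 of the 33. They had passed the filter on low values only through 4 and 5 hpf, so their number adds nothing to the levels given. In poly(A) libraries the sum was 34.0 TPM at 3 hpf, 220.1 TPM at 4 hpf and 255 TPM at 5 hpf, below the sums in total RNA at 4 and 5 hpf. No row was above 0 in any alpha-amanitin library from 4 to 7.5 hpf. Those libraries are poly(A)-selected, and in wild-type poly(A) RNA at 4 hpf only 8 of the 55 rows were above 0. For most rows the 0 under alpha-amanitin thus cannot be set against the level in total RNA.

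A gene was counted as first seen at 4 hpf where it was under 1 TPM at 2 and at 3 hpf and reached at least 5 TPM at 4 hpf. This took 301 genes, 1.46% of the 20654 genes under 1 TPM at 2 and 3 hpf. A further 408 (1.98%) reached 5 TPM at 5 hpf and not before, and 24 had reached it at 3 hpf. The threshold at 4 hpf fell between si:ch211-234c11.3, at 5.00 TPM, and the claudin gene cldne, at 4.94 TPM. The median level of the 301 genes was 0, 0.10, 11.9 and 21.4 TPM at 2, 3, 4 and 5 hpf, and together they took 0.0063%, 0.70% and 1.38% of TPM at 3, 4 and 5 hpf. In the earlier libraries at 0 and 1 hpf, which the rule did not use, 271 of them were also under 1 TPM. Among them 42 rows share all values with another row, which leaves 267 distinct profiles.

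By kind of gene, the 301 held 16 miR-430 rows (5.32%, against 0.184% of all genes under 1 TPM at 2 and 3 hpf), 46 small structural RNA genes (15.3% against 14.3%), 28 named znf zinc finger genes (9.30% against 0.494%), 131 genes with only a clone-based name (43.5% against 46.5%) and 80 other named genes (26.6% against 37.2%). The miR-430 and znf shares were thus above, and the share of other named genes below, those of the genes the rule could have taken. Kinds were told by name, and small RNA genes named snoU, such as snoU6-53 and snoU83B, are counted with the other named genes. Of the 101 genes that could be placed in RefSeq gene order, 8 (7.92%) sat next to another of the 301, compared with 125 of 11490 tested genes (1.09%). Only placed genes were counted as neighbours, so genes that could not be placed may lie between them. The tested genes are also not the genes under 1 TPM that the rule could have taken. The 8 are a run of si:dkey-261j4.5, si:dkey-261j4.4, si:dkey-261j4.3 and drl, and the pairs her11 with her5 and znf1065 with znf1043. The build of this gene order differs from that of the files, and whether reads are shared between such neighbours was not tested.

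Among the next highest were genes with clone-based names and no role that could be given here. The gene si:dkeyp-87d1.1 had 0 and 0.31 TPM at 2 and 3 hpf and 207 and 136 TPM at 4 and 5 hpf. For BX927193.1 the levels were 0 and 0.29 TPM at 2 and 3 hpf and 169.6 and 156 TPM at 4 and 5 hpf. A further one, si:dkey-238o14.7, was listed at 0 in both early libraries and had 137 and 118 TPM in the late ones. Each was under 1 TPM early and above 100 TPM in both late libraries, and each was higher at 4 than at 5 hpf. The change of si:dkey-238o14.7 was 10.31 ± 0.30 (SE, adjusted p = 0.0088 by limma). For si:dkeyp-87d1.1 it was 9.70 ± 0.75 (adjusted p = 0.014), and for BX927193.1 9.69 ± 0.70 (adjusted p = 0.012). Both calls were lost without 5 hpf (adjusted p = 0.0678 and 0.0676 by limma) and with a pseudocount of 0.01 (adjusted p = 0.0588 and 0.0567). The rows BX323880.1 and CR847803.1 carry the same values, 0, 0.11, 131 and 297 TPM at 2, 3, 4 and 5 hpf, and count as 1 gene.

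Named genes first seen at 4 hpf reached similar levels. The gene vgll4l, of the vestigial-like family of transcription cofactors, had 0.10 and 0.41 TPM at 2 and 3 hpf and 109 and 322 TPM at 4 and 5 hpf. For asb11, which encodes an ankyrin repeat and SOCS box protein, the levels were 0.04, 0.14, 52.8 and 245 TPM at the 4 hours. For fam212aa they were 0, 0.07, 82.8 and 196 TPM. These 3 genes were more than 2-fold higher at 5 than at 4 hpf, whereas the zinc finger genes znf1126 (0, 0.03, 52.1 and 50.2 TPM) and znf1125 (0.01, 0, 42.4 and 43.2 TPM) were level between 4 and 5 hpf. Of 303 named znf genes tested, 35 were called higher and none lower, beside 2.62% and 0.0468% of all genes. The median change of the 303 was 0.63, and 30 of these 35 had passed the filter only through 4 and 5 hpf. The change of znf1126 was 8.81 ± 0.36 (adjusted p = 0.0088 by limma), that of asb11 9.28 ± 0.83 and that of vgll4l 9.20 ± 0.73 (adjusted p = 0.018 and 0.014). The call of vgll4l was lost without 5 hpf (adjusted p = 0.0616 by limma).

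**Figure D2:**
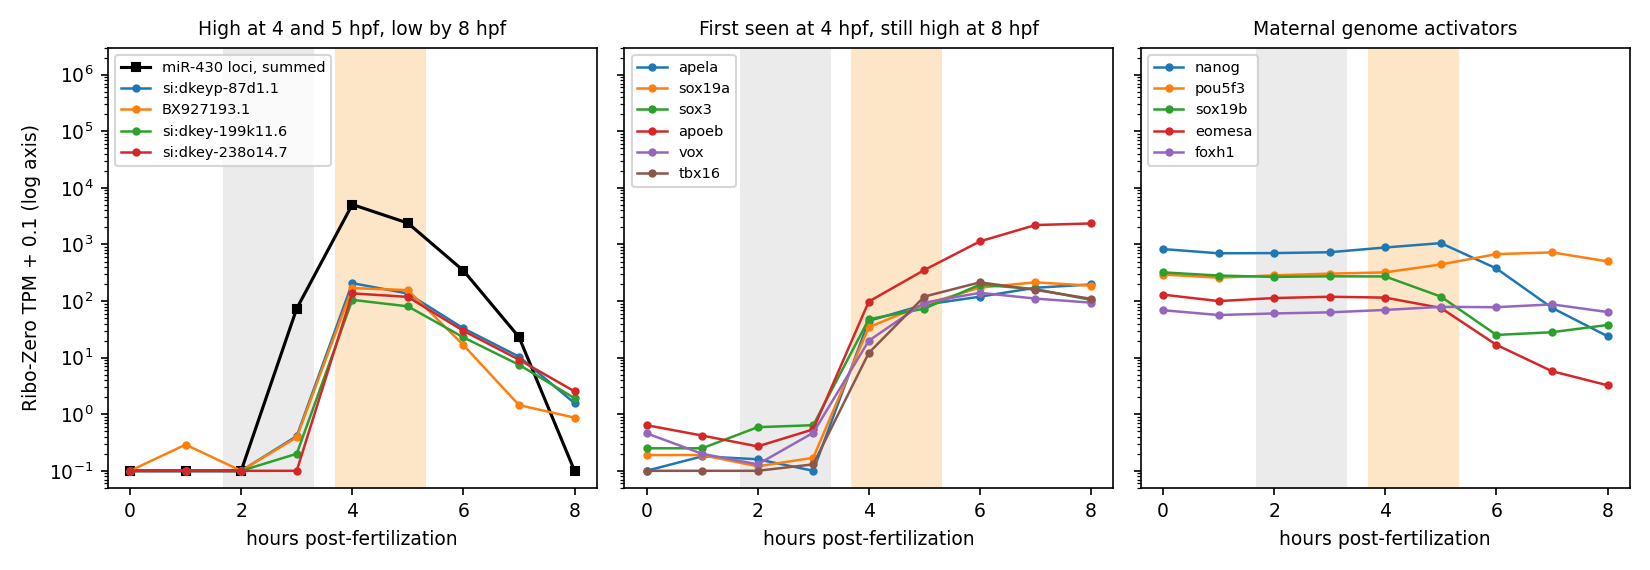
Ribo-Zero level (TPM + 0.1, log axis) at each hour from 0 to 8 hpf, with 2 and 3 hpf shaded grey and 4 and 5 hpf orange, 1 library per point. The summed miR-430 rows and the 4 genes on the left peaked at 4 hpf and were low by 8 hpf. The 6 genes in the middle stayed high. On the right, nanog, pou5f3, sox19b, eomesa and foxh1 were present throughout 0 to 5 hpf.

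The maternal factors that start transcription were already abundant at 2 hpf. Levels of nanog, a homeobox factor, were 705, 729, 885 and 1056 TPM at 2, 3, 4 and 5 hpf. For pou5f3, its POU-domain partner, they were 285, 305, 321 and 444 TPM. The SoxB1 gene sox19b had 267, 274, 272 and 119.8 TPM. Both nanog and pou5f3 were slightly higher in the late libraries without overlap, and 16.4% of all genes tested were higher without overlap. The level of sox19b was below its early level only at 5 hpf. None of the 3 passed limma's test (adjusted p = 0.205, 0.300 and 0.377). Without 4 hpf all 3 passed it, nanog and pou5f3 as higher (adjusted p = 0.020 and 0.025) and sox19b as lower (adjusted p = 0.0096), and without 5 hpf the change of sox19b was 0.0062. Zygotic SoxB1 genes appeared at 4 hpf. Levels of sox19a were 0.02 and 0.07 TPM at 2 and 3 hpf and 34.4 and 87.2 TPM at 4 and 5 hpf, and those of sox3 were 0.49, 0.54, 47.7 and 73.4 TPM. Both were absent or nearly so early and high in both late libraries. Their changes were 8.59 ± 0.57 (adjusted p = 0.011) and 6.59 ± 0.32 (adjusted p = 0.0088 by limma). The neural gene sox2 stayed under 1 TPM in the 4 libraries. Of 7 genome activator genes tested, sox19a and sox3 were called higher and none lower, beside 2.62% and 0.0468% of all genes. The median change of the 7 was 0.36, beside -0.34 over all genes. Both called genes had passed the filter only through 4 and 5 hpf, so their number adds nothing to the levels given. Neither is one of the maternal factors above.

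Several genes that pattern the dorsoventral axis appeared at 4 or 5 hpf. On the ventral side, bmp2b, a BMP ligand, had 0.66 and 0.51 TPM at 2 and 3 hpf and 32.0 and 54.6 TPM at 4 and 5 hpf. The homeobox repressors vox and ved, which restrict dorsal genes, had 0.03, 0.37, 19.8 and 93.5 TPM and 0, 0.41, 25.9 and 141 TPM at the 4 hours. For gata2a, a GATA factor of ventral tissue and blood, the levels were 0.49, 0.38, 6.78 and 16.04 TPM. The late levels lay above the early ones in each of these 4 genes, with no overlap, as in 16.4% of all genes tested. The change of bmp2b was 5.94 ± 0.38 (adjusted p = 0.011 by limma) and that of vox 7.45 ± 1.02 (adjusted p = 0.046), while ved, at 8.07 ± 1.17, missed the threshold (adjusted p = 0.055) and passed it without 4 hpf (adjusted p = 0.0368). The call of vox was lost without 5 hpf (adjusted p = 0.0859), and those of vox and gata2a with a pseudocount of 1 (adjusted p between 0.0717 and 0.0724) and under median-of-ratios scaling (adjusted p between 0.0622 and 0.0686 by limma). The BMP ligand bmp7a had 0.78, 0.11, 6.86 and 39.5 TPM and was called only without 2 or 3 hpf (adjusted p = 0.131 with all 4 libraries, 5.3e-08 and 0.000249 without those), and bmp4 was not tested, at 0.22 to 1.75 TPM. In all, 3 of 9 ventral and BMP genes tested were called higher, with a median change of 5.27, where 2.62% of all genes were called higher.

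On the dorsal side, dharma, a homeobox gene that acts downstream of maternal beta-catenin, had 0 and 0.07 TPM at 2 and 3 hpf and 6.04 and 4.10 TPM at 4 and 5 hpf. The forkhead gene foxd3 was at 0 in both early libraries and at 9.93 and 13.1 TPM in the late ones. Levels of noto, a homeobox gene of the notochord, were 0, 0.05, 11.6 and 66.3 TPM. All 3 were near 0 at 2 and 3 hpf, and dharma alone was lower at 5 than at 4 hpf. Limma called them higher, dharma by 5.28 ± 0.61 (adjusted p = 0.032), foxd3 by 6.85 ± 0.48 (adjusted p = 0.012) and noto by 7.83 ± 0.94 (adjusted p = 0.034). The BMP antagonist chd passed 5 TPM only at 5 hpf, with 0.13, 0.05, 2.81 and 28.4 TPM (adjusted p = 0.130 by limma), as did the forkhead gene foxa3 and the Wnt antagonist dkk1b. The organizer gene gsc had a low early level, 0.97, 1.29, 9.32 and 28.2 TPM, and was not called (adjusted p = 0.068). All 4 passed the test without 4 hpf (adjusted p between 0.0113 and 0.0164 by limma), where 12.9% of all genes were called higher. The call of dharma was lost with a pseudocount of 0.01 (adjusted p = 0.0772) and without 5 hpf (adjusted p = 0.0566), and that of noto with a pseudocount of 1 (adjusted p = 0.104) and under median-of-ratios scaling (adjusted p = 0.058). The 3 calls were the only ones among 9 dorsal organizer genes tested, whose median change was 5.28, where 2.62% of all genes were called higher.

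Mesendoderm genes were split between both hours. Apela, a peptide that guides cells in gastrulation through apelin receptors, had 0.06 and 0 TPM at 2 and 3 hpf and 44.6 and 85.9 TPM at 4 and 5 hpf. One receptor gene, aplnrb, had 0, 0.10, 19.0 and 35.9 TPM at the 4 hours, and the other, aplnra, 0.12, 0, 3.68 and 38.6 TPM. At 4 hpf apela and aplnrb had thus passed 5 TPM, and aplnra had not. The changes of apela and aplnrb were 8.94 ± 0.50 (adjusted p = 0.0099) and 7.53 ± 0.58 (adjusted p = 0.014 by limma), and that of aplnra was called only with an hour other than 5 hpf left out (adjusted p = 0.108 with all 4 libraries, 0.0186 without 4 hpf). Without 5 hpf the call of aplnrb was lost (adjusted p = 0.0578 by limma). The T-box gene tbx16, needed for trunk mesoderm, had 0, 0.03, 12.0 and 120.0 TPM, and the chemokine receptor gene cxcr4a 0.90, 1.02, 35.2 and 95.5 TPM. Both were called higher, tbx16 close to the threshold (adjusted p = 0.049; adjusted p = 0.145 with a pseudocount of 1 and 0.0755 under median-of-ratios scaling) and cxcr4a by 5.78 ± 0.54 (adjusted p = 0.019 by limma). The brachyury gene ta, with 0.06, 0.14, 1.67 and 26.9 TPM, and the GATA factor genes gata5 and gata6 of heart and endoderm reached 5 TPM only at 5 hpf, and sox17 and sox32, transcription factor genes of endoderm, were under 4 TPM in the 4 libraries. In total 5 of 21 mesendoderm genes tested were called higher and none lower, beside 2.62% and 0.0468% of all genes. Their median change was 3.92.

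In Nodal and FGF signaling, the calls were in antagonist genes. The Nodal antagonist lft2 had 0 and 0.16 TPM at 2 and 3 hpf and 19.2 and 21.3 TPM at 4 and 5 hpf, a change of 6.98 ± 0.59 (adjusted p = 0.017 by limma). The Nodal ligand ndr1 had 2.39, 2.04, 8.90 and 14.4 TPM at the 4 hours, and its relative ndr2 0, 0.07, 1.89 and 10.3 TPM. Only lft2 of these 3 was called, and ndr1 was present at 2 TPM before activation (adjusted p = 0.058 and 0.104 for ndr1 and ndr2 with all 4 libraries, 0.0161 and 0.0162 without 4 hpf). The co-receptor gene tdgf1, a maternal gene, had 31.0, 33.5, 45.0 and 96.0 TPM. Likewise, dusp6, an ERK phosphatase that dampens FGF signaling, had 0.09, 0.29, 23.4 and 32.7 TPM, a change of 6.67 ± 0.50 (adjusted p = 0.013 by limma). The ligand genes followed at 5 hpf: fgf17 had 0, 0, 4.80 and 33.6 TPM, fgf3 0, 0, 0.61 and 7.04 TPM and fgf8a 1.94, 1.13, 3.08 and 23.8 TPM. None of the 3 was called (adjusted p 0.057 to 0.236), and all 3 passed without 4 hpf (adjusted p between 0.000711 and 0.0264 by limma). Thus 1 of 9 FGF genes tested was called higher, beside 2.62% of all genes, and their median change was 2.46. Without 5 hpf lft2 and dusp6 lost their calls (adjusted p = 0.0671 and 0.0617). Genes of the Cxcl12 pathway, which guides migrating cells, also appeared: ackr3b, a scavenger receptor, had 0, 0.05, 20.9 and 31.8 TPM, and the ligand gene cxcl12a 0.02, 0.05, 3.39 and 10.3 TPM. Both were called higher (adjusted p = 0.010 and 0.044 by limma), cxcl12a not with a pseudocount of 1 (adjusted p = 0.119). With lft2 they are the 3 calls among 7 tested genes known in zebrafish as miR-430 targets, where 2.62% of all genes were called higher. The median change of the 7 was 5.20. Of these 7, 2 had a change below 0, as had 74.7% of all genes tested. Both had fallen by 5 hpf under the rule given below, as had 28.1% of all maternal genes. All 3 called genes had passed the filter only through 4 and 5 hpf, so their number adds nothing to the levels given.

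Genes of the outer layers of the embryo were also called. In the enveloping layer, the surface epithelium of the embryo, grhl3, a grainyhead-like factor of epidermis, had 0.42 and 1.07 TPM at 2 and 3 hpf and 115 and 246 TPM at 4 and 5 hpf. The Krüppel-like gene klf17 had 1.18, 3.93, 211 and 189.6 TPM. Both were under 4 TPM early and above 100 TPM in both late libraries. Their changes were 7.76 ± 0.58 (adjusted p = 0.013) and 6.46 ± 0.59 (adjusted p = 0.018 by limma). Keratin genes had most of their level at 5 hpf: krt18 had 0, 0.21, 22.8 and 249.6 TPM, krt4 0.16, 0.20, 3.09 and 107 TPM and krt8 3.77, 4.25, 9.05 and 190.2 TPM. None of the 3 was called (adjusted p = 0.057, 0.195 and 0.243), and all 3 passed without 4 hpf (adjusted p between 0.00809 and 0.0206 by limma). The calls were 2 of 14 enveloping layer genes tested, with a median change of 3.97, where 2.62% of all genes were called higher. Of the 2, grhl3 had passed the filter only through 4 and 5 hpf. In the yolk syncytial layer, the nuclei-bearing layer under the blastoderm, the homeobox gene mxtx2 had 0.08, 0.77, 65.3 and 104 TPM, gata3 0.08, 0.17, 9.09 and 27.0 TPM and the apolipoprotein gene apoeb 0.17, 0.44, 97.9 and 354 TPM. All 3 were under 1 TPM early and were called higher (adjusted p = 0.027, 0.027 and 0.016 by limma). They were the calls among 7 tested, beside the same 2.62% of all genes, with a median change of 6.16 over the 7. The calls of grhl3, klf17, mxtx2, gata3 and apoeb were all lost without 5 hpf (adjusted p between 0.0508 and 0.09 by limma). The lipid transfer gene mtp and the nuclear receptor gene hnf4a first passed 5 TPM at 5 hpf, and apoa1b and apoa2, further apolipoprotein genes, stayed under 1 TPM to 5 hpf.

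Of 15 ectoderm and other early transcription factor genes tested 9 were called higher, with a median change of 5.23, and 6 were under median-of-ratios scaling. The shares of all genes called higher were 2.62% and 1.8%. The early zygotic gene nnr had 0.16 and 0.18 TPM at 2 and 3 hpf and 94.0 and 169 TPM at 4 and 5 hpf. The zinc finger gene blf had 2.04, 2.38, 139 and 336 TPM at the 4 hours. For the Iroquois gene irx7 the levels were 0.09, 0.43, 57.3 and 51.8 TPM, and for the hairy-related gene her5 0.04, 0.62, 50.05 and 59.6 TPM. The late levels were well above the early ones in each of these genes. The changes of nnr and blf were 8.87 ± 0.38 (adjusted p = 0.0088) and 6.55 ± 0.47 (adjusted p = 0.012 by limma). The Krüppel-like gene klf2b had 0.74, 0.70, 20.9 and 21.1 TPM, the forkhead gene foxi1 3.22, 2.63, 25.7 and 26.4 TPM and the zinc finger gene zic2b 2.27, 1.07, 54.7 and 246 TPM. Levels of klf2b and foxi1 were flat between 4 and 5 hpf and that of zic2b was higher at 5 hpf. Without 5 hpf irx7, her5, foxi1 and zic2b lost their calls (adjusted p between 0.0539 and 0.0937 by limma). In this list 6 of the 9 calls were in genes that had passed the filter only through 4 and 5 hpf. The same held for all calls among ventral, dorsal, mesendoderm, FGF and yolk syncytial layer genes, and for 1 of 2 among enveloping layer genes. The number of these calls thus adds nothing to the levels given. The medians of these lists leave out genes averaging under 1 TPM, so they too describe in part what the filter let in.

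**Figure D3:**
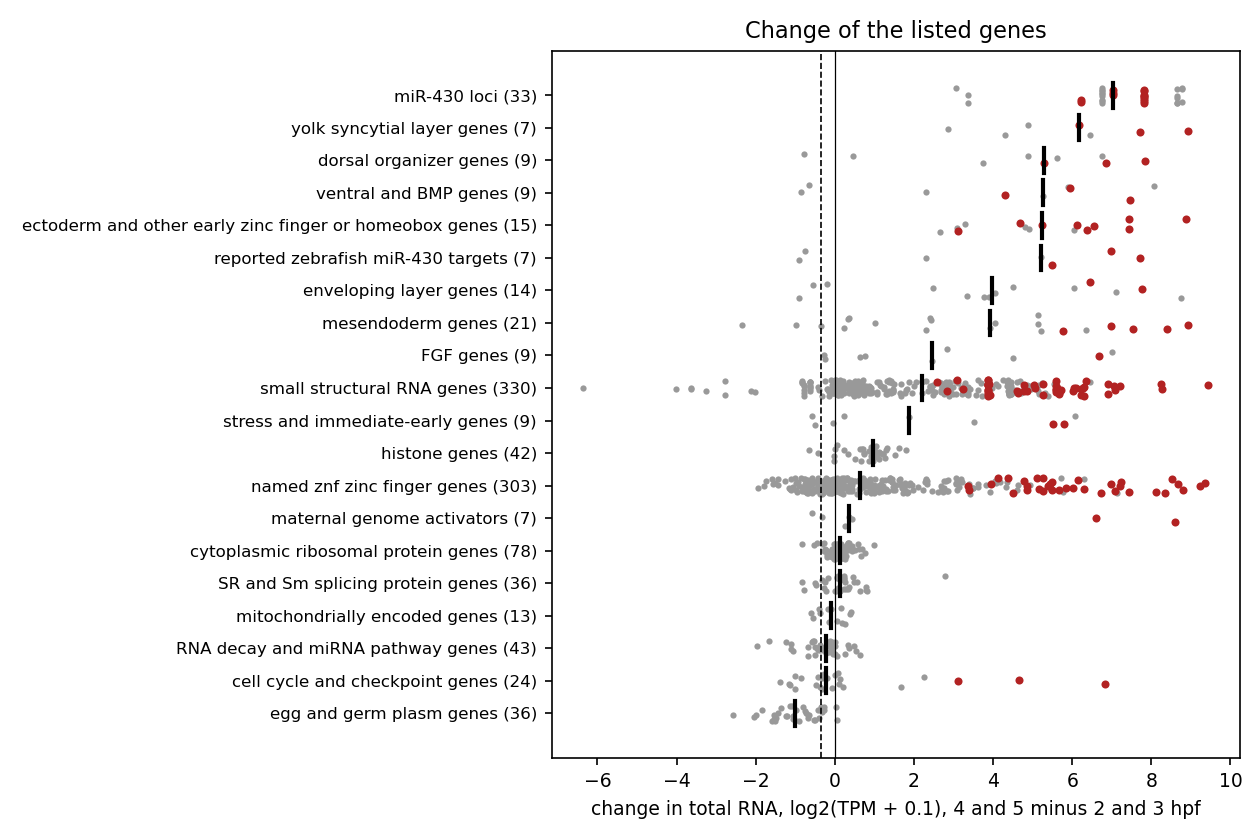
Change of each listed gene between 2 and 3 and 4 and 5 hpf in total RNA (horizontal axis, log2(TPM + 0.1)), 1 row per list with the number of genes tested in parentheses, 1 point per gene. Red points passed limma's test, black bars are list medians, the dashed line is the median over all genes tested (-0.34) and the solid line is 0. The lists of patterning genes have medians between 2.46 and 6.16, right of the line. Egg and germ plasm genes have a median of -1.01. Tested only through 4 and 5 hpf were 6 of 9 ventral, 7 of 9 dorsal and 12 of 21 mesendoderm genes. The same held for 4 of 9 FGF, 9 of 14 enveloping layer, 7 of 7 yolk syncytial layer and 10 of 15 ectoderm genes. The medians of these lists thus describe in part what the filter let in.

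Some genes averaged at least 1 TPM at 2 and 3 hpf and still rose. Of these 57 called genes, 44 averaged only 1 to 5 TPM early. Among the 57, 3 were chosen here after their values were seen. The gene zgc:113886 had 14, 16.5, 802 and 836 TPM at 2, 3, 4 and 5 hpf, a change of 5.74 ± 0.16 (adjusted p = 0.0088 by limma). The helix-loop-helix gene id1, a BMP target, had 1.61, 4.10, 109 and 308 TPM. In the Wnt pathway wnt11, a ligand of convergence and extension, had 1.36, 1.15, 17.9 and 46.1 TPM. The windows were far apart in each. The calls of id1 (adjusted p = 0.030 by limma, 0.075 without 5 hpf) and wnt11 (adjusted p = 0.033, 0.0576 under median-of-ratios scaling) were less stable than that of zgc:113886. Among cell cycle genes, 3 were called. The cyclin gene ccnd1, which drives entry into the cycle, had 1.27, 0.59, 49.6 and 248 TPM, and the Cdk inhibitor genes cdkn1ca and cdkn1a had 1.17, 1.10, 19.6 and 48.9 TPM and 1.32, 0.97, 7.95 and 13.9 TPM. All 3 were called higher (adjusted p = 0.040, 0.027 and 0.044 by limma), and without 5 hpf ccnd1 and cdkn1a lost their calls (adjusted p = 0.0644 for both). They were the calls among 24 cell cycle and checkpoint genes tested, beside 2.62% of all genes called higher. The median change of the 24 was -0.24. Of the 3, ccnd1 averaged under 1 TPM at 2 and 3 hpf and had passed the filter only through 4 and 5 hpf. Its call thus adds nothing to its levels. Under the rule for falls given below, 6 of the 24 had fallen by 5 hpf, beside 28.1% of all maternal genes. The maternal genes chek1, cdk1, aurka, aurkb, plk1 and ccnd2a, which drive or guard the cycle, were at least 1 lower on the log2 scale at 5 hpf than at 2 and 3 hpf. None was called with all 4 libraries (lowest adjusted p = 0.122), and all 6 were without 4 hpf (adjusted p between 0.00753 and 0.0475 by limma), where 46.4% of all genes were called lower.

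The genes first seen at 4 hpf did not share a later course. Their highest Ribo-Zero level was at 4 hpf for 47 genes, at 5 hpf for 129, at 6 hpf for 46, at 7 hpf for 28 and at 8 hpf for 51. By 8 hpf 133 of 301 (44.2%) were more than 4-fold below their highest level, compared with 35 of 408 genes (8.58%) first seen at 5 hpf. All 16 miR-430 rows were among the 133, as were 18 of 28 znf genes, 21 of 46 structural RNA genes, 68 of 131 clone-named genes and 10 of 80 other named genes. The median level at 8 hpf was 0 TPM for miR-430 rows, 5.91 TPM for znf genes, 6.85 TPM for structural RNA genes, 6.80 TPM for clone-named genes and 48.4 TPM for other named genes. Thus si:dkey-199k11.6 went from 105 TPM at 4 hpf to 1.82 TPM at 8 hpf, and mxtx2 from 104 TPM at 5 hpf to 1.98 TPM, whereas apoeb was at 2352 TPM and krt18 at 1178 TPM by 8 hpf. Hours after 5 hpf were not used to choose the genes.

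Poly(A) libraries showed the same onset for most of these genes. By the same rule 222 of the 301 genes (73.8%) were first seen at 4 hpf in poly(A) RNA too, and these make up 64.0% of the 347 genes that rule takes in poly(A). Another 24 came at 5 hpf, and 10 stayed under 1 TPM at 4 and 5 hpf. Their median was 16.7 TPM at 4 hpf and 42.2 TPM at 5 hpf. In limma's poly(A) fit (658 of 15478 genes higher, 4.25%, and 25 lower, 0.162%) 277 of the 301 were tested and 236 called higher. Those tested had passed the filter through their late libraries, so this count adds nothing to their levels. By kind, 4 of 39 structural RNA genes tested were called, and 27 of 28 znf genes, 128 of 131 clone-named genes and 77 of 78 other named genes. The poly(A) fit called 170 genes higher without 2 hpf, 199 without 3 hpf, 1014 without 4 hpf and 328 without 5 hpf. A direct test of whether the change differed between total and poly(A) RNA called 0 of 15334 genes in limma (lowest adjusted p = 0.0561, 52 genes higher and 1712 lower at an unadjusted p under 0.05), but 44 higher and 318 lower without 4 hpf and 23 higher and 3 lower without 5 hpf. With the hour as a block, an alternative chosen after seeing the data, 4 were higher in total RNA (a U1 gene and 3 rows of dre-mir-430b-1 with identical values, a difference of 5.63 at an adjusted p of 0.0131 by limma) and 2 lower (another U1 gene and SNORA57).

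In embryos injected with alpha-amanitin most of these genes were at or near 0. The median of the 301 genes was 0 TPM in each of the 12 alpha-amanitin libraries from 2 to 7.5 hpf, and 63 genes were listed at 0 in all of them. Apela, for example, had 67.0 and 151 TPM in wild-type poly(A) RNA at 4 and 5 hpf and 0 and 0 TPM in alpha-amanitin RNA. For vgll4l the values were 220.0 and 765 against 0.32 and 0.09 TPM, and for asb11 90.0 and 561 against 0.05 and 0 TPM. In each the wild-type libraries were far above the treated ones. Limma's test of the difference in change between treatments called 384 of 15156 genes (2.53%) as larger in wild type and 7 (0.0462%) as smaller. Of the 384, 331 averaged under 1 TPM over the 6 libraries other than wild type at 4 and 5 hpf. These 331 had passed the filter only through wild type at 4 and 5 hpf. Among the 301 genes, 273 were tested, 212 called larger and 2 smaller. Of the 273, 260 averaged under 1 TPM over the other 6 libraries and passed the filter only through the wild-type libraries at 4 and 5 hpf, as did apela, vgll4l and asb11, so the count and these genes' tests add nothing to their levels. The difference for apela was 10.58 ± 1.05 (adjusted p = 0.0023 by limma), for vgll4l 12.30 ± 1.13 and for asb11 11.13 ± 1.25 (adjusted p = 0.0023 and 0.0028). The count of 384 also rests on the design and on single hours. With the hour as a block 91 genes were called larger and 2 smaller (67 and 1 among the 273), and the adjusted p of the 3 genes was 0.0354 to 0.04 by limma. Without the block, leaving out both libraries of 2 hpf, or both of 3 hpf, left 1 gene called as larger, whereas leaving out those of 4 or 5 hpf left 708 or 173. At 1 TPM or more in any treated library from 4 to 7.5 hpf were 44 of the 301 genes, 19 of them structural RNA genes. The treated embryos' own change called 6 of 14168 genes higher (0.0423%) and 8 lower (0.0565%).

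**Figure D4:**
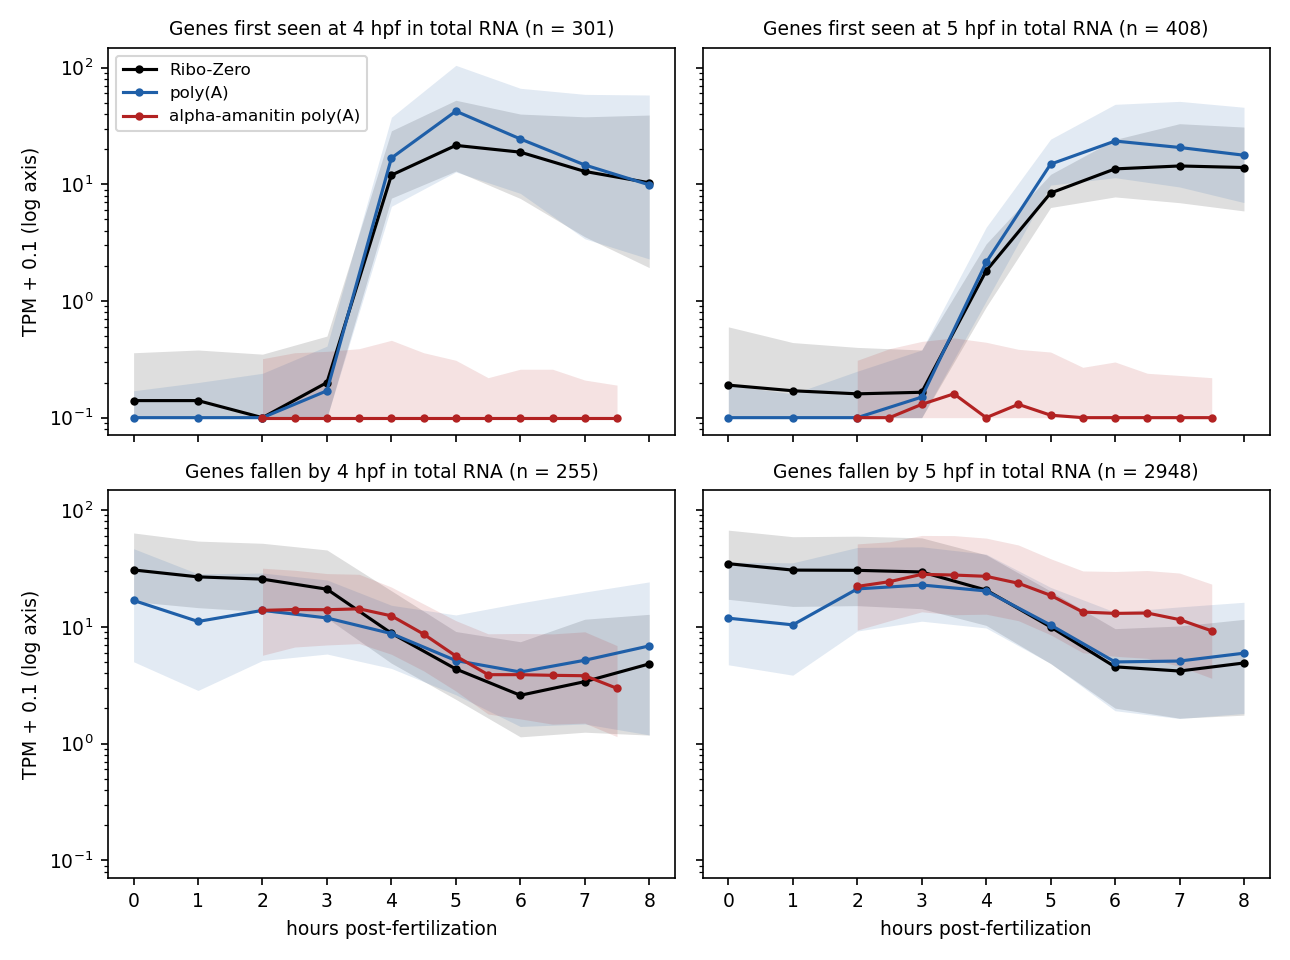
Median level (line) and interquartile range (shading), TPM + 0.1 on a log axis, of the genes first seen at 4 or 5 hpf and of those fallen by 4 or 5 hpf, in Ribo-Zero, poly(A) and alpha-amanitin poly(A) libraries, 1 library per time point. Genes first seen at 4 or 5 hpf stay at a median of 0 to 0.06 TPM under alpha-amanitin, and genes fallen by 4 hpf had a lower median at 5 than at 2 hpf in all 3 kinds of library.

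Falls of maternal RNA were mostly seen at 5 hpf. A gene was counted as fallen by 4 hpf where it had at least 5 TPM at 2 and at 3 hpf and was, at 4 and again at 5 hpf, at least 1 below the lower of those 2 values on the log2 scale. This held for 255 of 10495 genes (2.43%), and 2948 more (28.1%) had fallen by 5 hpf only. The median level of all 10495 genes was 31.31, 31.15, 26.1 and 18.54 TPM at 2, 3, 4 and 5 hpf. Both counts are to be read against that general shift. Under median-of-ratios scaling 108 genes had fallen by 4 hpf, and the 2948 were not recounted. The gene just inside the limit was zgc:153240 and the one just outside rusc2, both with a log2 ratio of -1 at 4 hpf to the precision of the files. Median levels of the 255 genes were 25.5, 20.9, 8.71 and 4.25 TPM at 2, 3, 4 and 5 hpf, and their share of TPM went from 1.31% to 0.227%. The genes fallen by 5 hpf took 15.3%, 14.6%, 10.4% and 5.03% of TPM at 2, 3, 4 and 5 hpf. Of the 255 genes, 226 (88.6%) were already lower at 3 than at 2 hpf. The share was 67.7% among those fallen by 5 hpf and 53.8% among all maternal genes. The rule itself used the levels at 2 and 3 hpf, so these shares only describe the genes it took. By name, 203 of the 255 had a gene name, 2 of them znf genes, and 52 a clone-based name or none. The other 201 were 78.8% of the 255, near their 81.9% of all maternal genes.

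All 7 genes called lower were among the 255. The gene lamtor3, of the Ragulator complex that tethers mTOR signaling to lysosomes, had 16.6 and 14.3 TPM at 2 and 3 hpf and 3.07 and 2.02 TPM at 4 and 5 hpf. Levels of mycbp, which encodes a Myc-binding protein, were 18.3, 11.6, 2.13 and 1.55 TPM at the 4 hours, and those of morc3a, of the MORC family of nuclear ATPases, 24.1, 18.9, 5.33 and 4.25 TPM. In each, both late levels were well below both early ones. The changes were -2.58 ± 0.32 (adjusted p = 0.037), -2.93 ± 0.37 (adjusted p = 0.039) and -2.14 ± 0.27 (adjusted p = 0.038 by limma). The ubiquitin ligase gene siah1 had 69.8, 63.2, 29.0 and 26.0 TPM, znrd1, which encodes an RNA polymerase I subunit, 25.2, 23.3, 8.07 and 6.43 TPM, and ENSDARG00000103987, which has no name, 8.86, 9.10, 1.54 and 1.26 TPM. These 3 and the others but ENSDARG00000097414 lost their call without 5 hpf, with limma's adjusted p between 0.0503 and 0.0776, and all but that gene did so without 2 hpf as well (adjusted p between 0.0772 and 0.338). The calls of siah1, znrd1 and ENSDARG00000103987 were also lost without 3 hpf (adjusted p between 0.144 and 0.213 by limma). Levels of ENSDARG00000097414, which has a clone-based name only, were 139, 122, 34.8 and 26.6 TPM, a change of -2.09 ± 0.21 (adjusted p = 0.023 by limma).

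Other genes with steep drops at 4 hpf were not called. The cytochrome c oxidase assembly gene coa3b had 43.1 and 38.9 TPM at 2 and 3 hpf and 8.89 and 4.09 TPM at 4 and 5 hpf. The iron-sulfur cluster gene lyrm4 had 26.2, 15.4, 4.03 and 3.62 TPM, and the mitochondrial ribosome gene mrpl53 16.9, 14.9, 3.42 and 4.95 TPM. The growth factor gene hbegfa had 34.1, 20.5, 4.85 and 2.34 TPM, and the autophagy gene atg12 28.2, 18.7, 5.15 and 1.92 TPM. The windows did not overlap in any of the 5. The same held, with the late window lower, for 57.1% of all genes tested, so it does not set these genes apart. With all 4 libraries limma's adjusted p was between 0.054 and 0.104, and each gene passed the test with some hour left out, lyrm4 without 3 hpf (adjusted p = 0.0139) and the others without 4 hpf (adjusted p between 0.0102 and 0.0302), a fit that called 46.4% of all genes lower.

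Egg and germ plasm genes lost most of their summed level by 5 hpf, with no gene called. Only 0.0468% of all genes tested were called lower, so the lack of calls says little. All 36 listed genes were tested, with a median change of -1.01 against -0.34 over all genes, and their sum went from 7994 and 7507 TPM at 2 and 3 hpf to 5325 and 2836 TPM at 4 and 5 hpf. By 4 hpf 3 had fallen, beside 2.43% of all maternal genes. The kinase gene mos, which holds the egg in meiosis, had 168 and 124 TPM at 2 and 3 hpf and 41.8 and 14.03 TPM at 4 and 5 hpf. The oogenesis-related gene org had 367, 292, 128 and 52.9 TPM at the 4 hours, and ca15b, a carbonic anhydrase gene, 646, 519.8, 255 and 104 TPM. Each was lowest at 5 hpf, and the windows did not overlap, as in 57.1% of all genes tested, with the late window lower. The change of mos was -2.57 ± 0.57 (adjusted p = 0.137 by limma), and mos, org and ca15b passed the test without 2, 3 or 4 hpf (adjusted p between 0.0166 and 0.0171 without 4 hpf). Another 21 had fallen by 5 hpf, beside 28.1% of all maternal genes. The gene buc, which organizes the germ plasm, had 850.0, 844, 507 and 166 TPM, and the germ cell gene dazl 228, 212, 118 and 52.9 TPM. The Tudor gene tdrd6 had 57.9, 58.1, 47.2 and 8.39 TPM, and btg4, an adaptor of mRNA deadenylation in eggs, 295, 236, 129.5 and 32.1 TPM. All 4 were lowest at 5 hpf and were called only with an hour left out (adjusted p between 0.00541 and 0.0146 by limma without 4 hpf, where 46.4% of all genes were lower). In contrast ddx4, the germline helicase vasa, had 48.0, 48.6, 50.1 and 48.9 TPM and was flat.

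**Figure D5:**
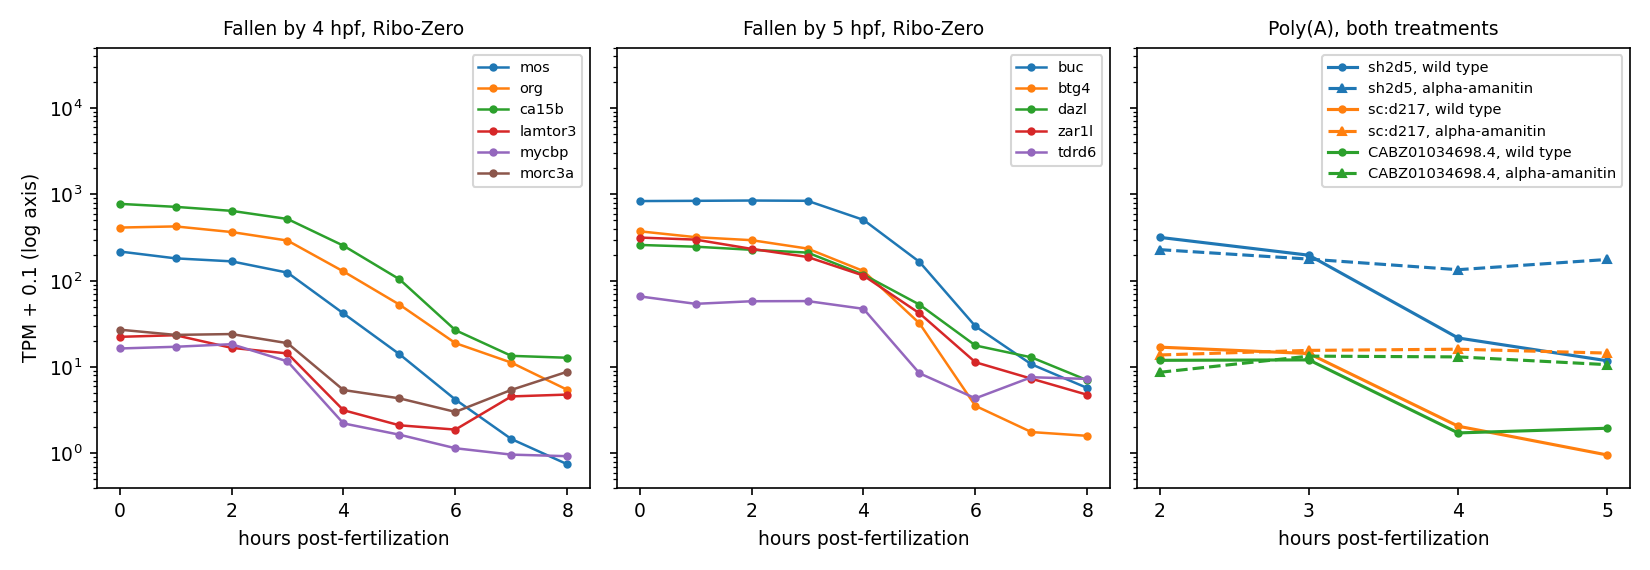
Levels (TPM + 0.1, log axis) of maternal genes in Ribo-Zero libraries from 0 to 8 hpf for 6 genes fallen by 4 hpf (left) and 5 fallen by 5 hpf (middle), and of 3 genes at 2 to 5 hpf in poly(A) libraries of wild-type (solid lines) and alpha-amanitin embryos (dashed lines, right). Each point is 1 library. The genes sh2d5, sc:d217 and CABZ01034698.4 had dropped by 4 hpf in wild-type embryos, sh2d5 from 318 TPM at 2 hpf to 21.7 TPM, and were at 134, 16.03 and 13.04 TPM at 4 hpf in treated embryos.

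Both groups were then followed in the poly(A) libraries, which the rule did not use. Genes fallen by 4 hpf had a median change of -1.92 in total RNA, -0.86 in wild-type poly(A) and -0.80 in alpha-amanitin poly(A) RNA. Those fallen by 5 hpf had medians of -1.01, -0.64 and -0.12. All genes tested had -0.34, 0.08 and 0.06. Over both late hours the first group thus had similar medians with and without alpha-amanitin, and the second group a smaller one with it. The median difference between treatments was -0.07 and -0.37 for these groups, and -0.0082 over all genes. At 5 hpf 115 of 196 genes fallen by 4 hpf (58.7%) were at least 1 lower on the log2 scale in alpha-amanitin RNA, as were 537 of 2587 genes fallen by 5 hpf (20.8%) and 816 of 9361 maternal genes (8.72%). In wild-type poly(A) RNA the shares were 50.3%, 49.7% and 19.7%, over the genes with at least 5 TPM at 2 and 3 hpf in those libraries. At 4 hpf the shares were lower. Of genes fallen by 4 hpf they were 31 of 185 (16.8%) in wild-type and 11 of 196 (5.61%) in alpha-amanitin poly(A) RNA. Those of genes fallen by 5 hpf were 4.68% and 0.309%. For all maternal genes the share was computed only at 5 hpf, so the shares at 4 hpf have no background beside them. Whether the shares at either hour differ between treatments was not tested. Few single genes passed the test of a difference between treatments: 2 of the 255 and 1 of the 2948 were called as smaller in wild type. The latter is sh2d5, an SH2 domain gene, with 318, 198, 21.7 and 11.7 TPM in wild-type poly(A) RNA at 2, 3, 4 and 5 hpf and 229, 178, 134 and 177 TPM under alpha-amanitin, a difference of -3.57 ± 0.57 (adjusted p = 0.011 by limma). The genes sc:d217 and CABZ01034698.4, named here after their values were seen, had differences of -3.53 and -2.84 (adjusted p = 0.021 and 0.035 by limma) and are the other called genes. Their wild-type levels were 14.3 and 12.0 TPM at 3 hpf and 1.97 and 1.63 TPM at 4 hpf, and 15.5 and 13.3 TPM at 3 hpf and 16.03 and 13.04 TPM at 4 hpf under alpha-amanitin. None of the 3 was called with the hour as a block (adjusted p = 0.0511 for sh2d5, 0.0565 for sc:d217 and 0.0724 for CABZ01034698.4 by limma), and leaving out both libraries of 2 hpf or of 3 hpf left no gene called as smaller in wild type.

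Not every gene of the 255 stayed low. Of the 255, 82 (32.2%) were at least 2-fold higher at 8 than at 6 hpf, against 15.8% of those fallen by 5 hpf, and 62 were under 1 TPM at 8 hpf. The gene znrd1 went from 6.43 TPM at 5 hpf to 19.9 TPM at 8 hpf and siah1 from 26.0 to 46.3 TPM, whereas mycbp was at 0.83 TPM and mos at 0.65 TPM by then.

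Genes of the basic machinery had no calls, and few genes with an early level had any. Of genes at 5 TPM or more at 2 and 3 hpf, 0.105% were called higher and 0.0667% lower. The lack of calls thus does not set the genes below apart. Of 78 cytoplasmic ribosomal protein genes, 36 SR and Sm splicing protein genes, 43 genes of RNA decay and the miRNA pathway, 42 histone genes and 13 mitochondrially encoded genes none was called in either direction in limma's fit with all 4 libraries. Their median changes were 0.14, 0.14, -0.23, 0.95 and -0.11, against -0.34 over all genes. Under median-of-ratios scaling RNA decay genes had a median of 0.099, mitochondrially encoded genes 0.23 and cell cycle genes 0.10, so that their sign turned. Histone genes summed to 1.49% and 1.58% of TPM at 2 and 3 hpf and to 2.09% and 3.67% at 4 and 5 hpf. In poly(A) RNA the sums were 1.04%, 0.618%, 0.717% and 0.91%. Of 9 stress and immediate-early genes tested, with a median change of 1.87, ier2a and jun were called higher, beside 2.62% of all genes. The call of jun was lost with a pseudocount of 1 (adjusted p = 0.121 by limma). Both had passed the filter only through 4 and 5 hpf, as had 5 of the 9. The heat shock genes hsp70.1, hsp70.3 and hsp70l had changes between -0.50 and 0.24 with no call.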

How the data were processed

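Whole zebrafish embryos were sequenced at each hour, in Ribo-Zero and poly(A) libraries. Per the labels, reads were converted with bcl2fastq 2.18, aligned with STAR 2.7.3a to danRer11 and quantified with RSEM, and the authors deposited TPM per gene, rounded to 2 decimals. TPM keep no trace of depth, and the read number of each library was not known here, so values carry no counting error. No per-sample column was left without a sample (0 columns).

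Genes with a mean of at least 1 TPM over the libraries of a fit were tested on log2(TPM + 0.1) with limma 3.58.1 (R 4.3.3; empirical Bayes with trend, two-sided, Benjamini-Hochberg adjustment over all genes tested, threshold 0.05), and differences between library types or treatments as interaction terms. Errors are standard errors (SE). The 2 libraries of a window stood in for replicates. They are different hours, so p-values measure the spread between hours, and whether they came from separate clutches is not stated. Group rules, summaries and figures used Python 3.11.15, pandas 2.3.3, numpy 2.4.6 and matplotlib 3.10.9. The fit was tested on simulated data with 200 changed genes.

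Gene lists covered genome activators, ventral, dorsal, mesendoderm, FGF, enveloping layer, yolk syncytial layer, ectoderm, egg and germ plasm, miR-430 target, cell cycle, RNA decay, stress, adult marker, miR-430, ribosomal, mitochondrial, znf, splicing, histone and small structural RNA genes. Besides list genes, those named were the 15 with the largest gap between the windows in each direction, the 10 highest of those first seen at 4 hpf, the 10 with the lowest ratio at 4 hpf of those fallen by then, and the 5 with the largest difference between treatments in each direction. Genes named outside these rules are said to have been chosen after their values were seen, and siah1 and znrd1 are named as genes called lower. The members and lists were chosen with earlier results of these data known.

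Gene names came from the files (687 of 35117 rows have none), and 27000 IDs matched the reference table. RefSeq gene order of GRCz12tu served only to find neighbours. Gene length, exons, protein length and promoter letters were not analysed here. Alternatives covered pseudocounts, filters, scaling, the trend, the windows, each hour left out and, chosen after seeing the data, the hour as a block in the interaction tests.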

Additional observations from a re-analysis of the deposited data

Results flagged for a closer look

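The change between the windows differed between wild-type and alpha-amanitin poly(A) RNA in 384 genes, where it was larger in wild type, and in 7, where it was smaller, by limma's interaction test. Of the 384, 331 averaged under 1 TPM over the 6 libraries other than wild type at 4 and 5 hpf. These passed the filter only through wild type at 4 and 5 hpf, so their number adds nothing to their levels. Both vgll4l and asb11 are among them. The other 53 are of 14022 genes tested that averaged at least 1 TPM there. With the hour as a block 91 and 2 were called. The largest positive differences were 15.14 for a U2 gene, 12.30 for vgll4l, 11.6 for both BX323880.1 and CR847803.1, which carry identical values, and 11.13 for asb11. The U2 gene had 1.15 and 0 TPM at 2 and 3 hpf and 216 and 484 TPM at 4 and 5 hpf in wild type, against 5.69, 2.59, 0 and 0 TPM with alpha-amanitin.

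The largest negative differences were -9.48 for AC024175.19, -7.54 and -4.13 for 2 U1 genes, -4.23 for BX255897.2 and -3.57 for sh2d5, of which AC024175.19 and the first U1 gene kept their call with the hour as a block. AC024175.19 was at 0 TPM in the 4 wild-type libraries and at 141 and 35.9 TPM at 4 and 5 hpf with alpha-amanitin. The first U1 gene had 12.5, 7.58, 4.30 and 12.7 TPM in wild type and 0, 0, 14.70 and 13.5 TPM with alpha-amanitin. U1 and U2 genes are near-identical copies, and the level of a single copy is uncertain.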

How the results depend on the processing

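Replicate numbers pair no libraries, as each hour is a group of 1, but the tests of a difference between treatments and between library types share hours. With the hour as a replicate block, chosen after seeing the data, 91 genes had a larger and 2 a smaller change in wild type than with alpha-amanitin, and 4 a larger and 2 a smaller one in total than in poly(A) RNA. Across genes the step from 2 to 3 hpf had a Pearson's r of 0.43 between treatments and 0.14 between library types, and that from 4 to 5 hpf 0.04 and 0.70. Of the alternative counts 77 were within 1.5 times the value in the report and 84 were not. In total RNA the fit called 364 genes higher with a pseudocount of 0.01, 235 with no filter on low values, 200 with a mean of at least 5 TPM and 1002 for 1 to 3 against 4 to 6 hpf. Lower were 3 with a pseudocount of 1, 1 with no filter, 1 from 5 TPM, 11 under median-of-ratios scaling and 386 for 1 to 3 against 4 to 6 hpf. In poly(A), 397 genes were higher and 12 lower with a pseudocount of 1, 0 and 0 with no filter, and 436 and 38 from 5 TPM. Lower there were also 92 under median-of-ratios scaling, 47 without mitochondrially encoded genes and 5 without the trend. The difference between treatments was larger in wild type in 596 genes with no filter, 236 from 5 TPM and 659 with half-hour libraries, and smaller in 11 with a pseudocount of 0.01, 11 without mitochondrially encoded genes, 13 without the trend and 100 with half-hour libraries. That between total and poly(A) RNA was positive in 1 gene with a pseudocount of 0.01 and in 5 without the trend, by limma. Gaps of at least 1 were 194 lower with a pseudocount of 1, 138 lower under median-of-ratios scaling, 484 higher from 5 TPM, and 1696 higher and 203 lower in poly(A).

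Hourly steps of at least 1 were 95 up and 52 down from 2 to 3 hpf and 275 down from 3 to 4 hpf with a pseudocount of 1. From 5 TPM they were 115 and 46, then 522 and 274, then 499 up. Median-of-ratios scaling gave 264 down from 3 to 4 hpf and 959 down from 4 to 5 hpf, and poly(A) 1703 and 516, then 2035 up, then 2073 up. Genes first seen at 4 hpf were 565 from 2 TPM, and genes fallen by 4 hpf 1257 for a 1.5-fold fall, 162 in poly(A) and 108 under median-of-ratios scaling.

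With 1 hour left out, the fit called 327 to 1935 genes higher and 72 to 6953 lower in total RNA, and 170 to 1014 and 0 to 52 in poly(A). The treatments differed in 1 to 708 and 0 to 63, and the library types in 0 to 44 and 0 to 318. Gaps were 755 to 1812 and 354 to 3910, genes first seen 321 to 348 and genes fallen 279 to 538. The cause of these shifts was not tested. A lone library left in a window was assumed to vary like the others.

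Among list medians, cell cycle (0.0975), RNA decay (0.0992) and mitochondrially encoded genes (0.226) changed sign under median-of-ratios scaling, where activators had 0.69, ribosomal and splicing genes 0.47 and histones 1.29. With a pseudocount of 1 the medians were 3.01 for ventral, 3.03 for dorsal, 1.94 for mesendoderm, 1.5 for FGF, 2.72 for enveloping layer, 3.33 for yolk syncytial layer, 3.22 for ectoderm, 2.77 for miR-430 target, 1.16 for stress, 4.84 for miR-430 and 1.37 for structural RNA genes. Of the values of single named genes 502 kept their side of the threshold, 78 lost a call, 86 gained one and 1 changed sign, sox19b, at 0.0062 without 5 hpf and -1.17 without 4 hpf.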

Other observations

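Genes of small structural RNAs were 31.1% of Ribo-Zero TPM at 2 and at 3 hpf, 34.5% at 4 hpf and 32.9% at 5 hpf. Of 330 tested, 53 were called higher and none lower by limma, beside 2.62% and 0.0468% of all genes. The median change of the 330 was 2.21, and 44 of the 53 had passed the filter only through 4 and 5 hpf. In poly(A) RNA they were 0.227%, 0.587%, 0.702% and 0.746% of TPM at the same hours. Their copies are near-identical, so these values describe the class, in which genes named snoU were not counted.

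Other genes that averaged at least 1 TPM at 2 and 3 hpf rose too. Chosen after their values were seen, BX511215.1 had 1.5, 0.73, 197 and 175 TPM at 2, 3, 4 and 5 hpf, and slc25a22, a mitochondrial carrier gene, 1.88, 1.60, 89.9 and 173 TPM. The former was back at 2.61 TPM by 8 hpf, and the latter was at 102 TPM. Likewise zgc:113886, the highest of this kind named above, was at 5.35 TPM by 8 hpf. The chemokine receptor gene cxcr4b, whose relative cxcr4a appeared at 4 hpf, had 4.26 TPM at 2 hpf, a change of 3.77 ± 0.36 (adjusted p = 0.020 by limma, 0.0522 without 5 hpf).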
